A study of Saccharomyces cerevisiae with 4 samples.

Results

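Transcript signals of untreated yeast cells in mid-exponential growth were described from the 2 control arrays of a study with 4 arrays in all. Genes were ranked by the mean signal of the 2 arrays, using probe sets that the deposited table assigns to a single open reading frame and a single gene. These were 5566 of 7519 probe sets, and they gave 5473 ranked genes. The controls were Saccharomyces cerevisiae BY4741, a haploid laboratory strain of mating type a, grown in MM4 medium, moved to fresh medium and kept for 15 min with no drug. The other 2 arrays, of cells given quinine at 1 g/L in ethanol at 0.7%, are not compared here. Whether control medium held ethanol, what MM4 contains and whether the replicates came from separate cultures are not given in the sources used here. Each Affymetrix Yeast Genome S98 array received biotin-labelled cRNA made from 8 ug of total RNA that had been extracted with hot phenol.

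A yeast cell that divides quickly spends much of its transcription on making protein, and the genes for ribosomes and for fermenting sugar are known as its most abundant mRNAs. Many of these genes exist as pairs left by an ancient duplication of the genome, and the copies often differ in when they are expressed. Genes for using other sugars, for fatty acid breakdown, for sporulation and for stress protection are known to be kept low while glucose and nutrients are plentiful.

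A signal is the linear intensity of 1 probe set on 1 array, in the array's own units, and in this text the signal of control replicate 1 always stands before that of control replicate 2. A percentile is the share of the other ranked genes with a lower mean signal. Genes at percentile 90 or above were called bright (548 genes), those from 25 to 75 moderate (2737 genes) and those below 10 dim (548 genes), so the size of these bands was set by the definition. Bright began at FUM1, with a mean signal of 3939, and VTC1 lay just outside at 3937. Dim ended at TIP20, with a mean of 149, and YBL094C lay just above it. Probe sets differ in how strongly they respond to the same amount of RNA, so the order below is an order of signals and not of transcript numbers. For 85 genes with several probe sets, the highest and lowest mean signal of the same gene lay a median of 0.91 log2 units apart. They lay within 2.54 for 90% of these genes, which is used below as a rough guide to differences between genes. Of the 85, 50 had a probe set in exon 1 and another in exon 2, and exon 1 was lower in 41. The median was also 0.91 in 27 genes with several probe sets that carry no exon label. The guide runs from highest to lowest set, whereas genes are compared by their highest sets, so it is no limit for every pair. A Present call is the authors' statement that a probe set was detected on an array. Of the 5473 genes, 5133 (93.8%) were Present on both control arrays, 260 on 1 and 80 (1.46%) on neither. The table held no probe set without a Present call on any of the 4 arrays, so the 80 genes not Present in controls were all Present on at least 1 quinine array, and genes without any call are not analysed here.

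Bright, moderate and dim differed in how often they were detected. All 548 bright genes were Present on both arrays, as were 2694 of the 2737 moderate genes and 370 of the 548 dim genes. Of the dim genes, 127 were Present on 1 array and 51 on neither. The highest signal without a Present call was that of YJR115W, with 636 and 501 at percentile 42.9, and the lowest gene Present on both arrays was COS111, with 20.4 and 7.14. Signal and call therefore overlapped, and a low signal alone did not decide whether a gene was called.

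The 2 control arrays had nearly the same median over ranked genes, 710.6 in replicate 1 and 710.0 in replicate 2. Across the 5473 genes their log2 signals correlated with a Pearson coefficient of 0.973, a description across genes that share both libraries. The median absolute difference was 0.21 log2 units, and it was 0.145 in bright, 0.21 in moderate and 0.29 in dim genes. The arrays lay over 2-fold apart for 174 genes (3.18%), of which 139 (2.54%) were higher in replicate 1 and 35 (0.64%) were higher in replicate 2. After quantile normalization of the 2 arrays the counts were 131 and 44.

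**Figure D1:**
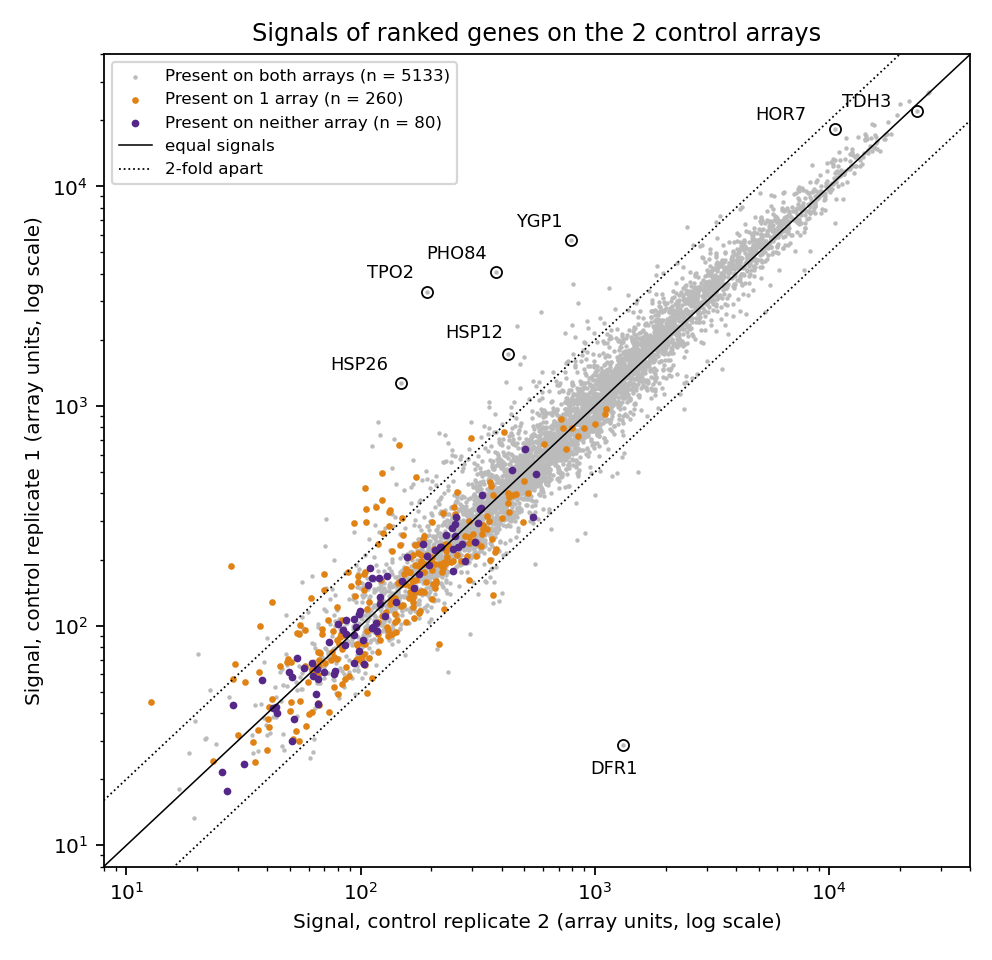
Signals of the 5473 ranked genes in control replicate 1 (vertical) against control replicate 2 (horizontal), both in array units on log scales, coloured by Present call. Most genes lie between the dotted lines that mark 2-fold, and the ringed genes TPO2, PHO84, HSP26, YGP1 and HSP12 lie far above the upper line, where replicate 1 was higher.

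The genes over 2-fold higher in replicate 1 included many stress and nutrient genes. Of 25 ranked general stress genes, 12 were over 2-fold higher in replicate 1 and 0 in replicate 2, beside 2.54% and 0.64% of all genes. YGP1, a secreted glycoprotein known from starved cells, had 5695 and 790.3. HSP26 and HSP12, small heat shock proteins, had 1270.5 and 149 for HSP26, and 1730.2 and 425 for HSP12. SPI1, a cell wall protein, had 2689 and 591. The polyamine exporter TPO2 had 3320.4 and 192 and the high-affinity phosphate transporter PHO84 had 4059 and 378. The probe set ID of TPO2 carries an extra letter, which marks shared or less strictly chosen probes. DFR1, dihydrofolate reductase, was the largest difference among genes Present on both arrays and ran the other way, with 28.6 and 1317. Whether the cultures, the RNA or the hybridisations of the 2 arrays differed was not tested, and for gene groups that moved with the array both arrays' values are given.

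Mating-type genes were set beside the labelled mating type a. Of 7 a-cell genes, 3 were bright and 0 were not Present. MFA2 and MFA1, which encode the a-factor pheromone, had 13379.7 and 10365 for MFA2, and 9854 and 7616 for MFA1, the MFA1 probe set being one whose ID carries an extra letter. STE2, the receptor for alpha-factor, had 4282 and 4316, and BAR1, the protease that degrades alpha-factor, had 1952 and 2014. ASG7 was the exception among the 7, with 169 and 174. The 4 alpha-cell genes had a median percentile of 13.0. None of these 4 was without a Present call either, with MF(ALPHA)1 Present on 1 array, so the calls did not set the lists apart. STE3, the receptor of alpha cells, had 47.6 and 27.4, while the alpha-factor genes MF(ALPHA)1 and MF(ALPHA)2 had 206 and 202 for MF(ALPHA)1, and 162 and 148 for MF(ALPHA)2. SAG1, alpha-agglutinin, was higher than the other alpha-cell genes, with 527 and 600.2. HIS3, which BY4741 lacks only in part, gave 3901 and 4764. The files do not place its probes relative to the deleted part, so this signal was not used to check the strain, and the other deleted markers LEU2, URA3 and MET17 are not used here.

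**Figure D2:**
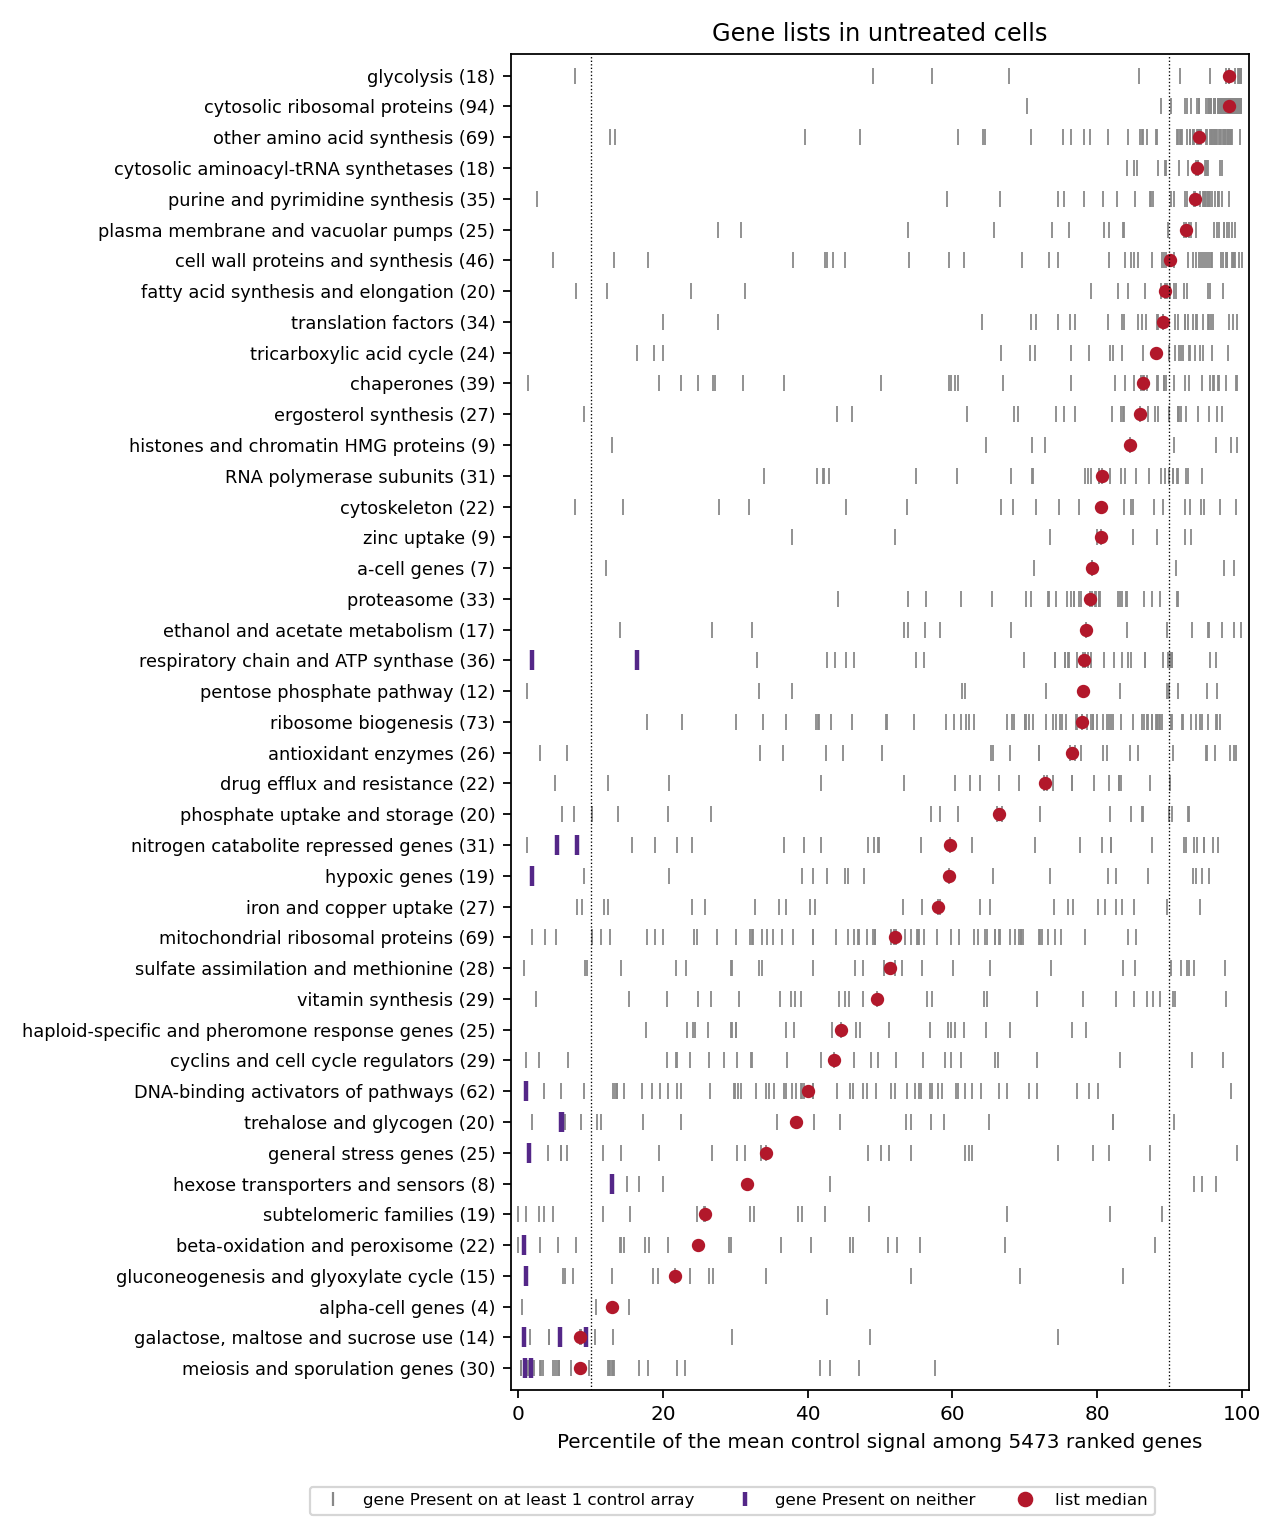
Percentile of the mean control signal for every ranked member of 43 gene lists (1 tick per gene, purple where Present on neither control array) with the median of each list as a red point, lists ordered by that median and the number of ranked members in brackets. Dotted lines mark percentiles 10 and 90, and glycolysis and cytosolic ribosomal proteins lie at the top with medians of 98.2.

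Ribosomal protein genes were the largest group among the 20 brightest genes, and glycolytic genes the next. The highest signal came from YDR524C-A, which the deposited gene text calls a protein of unknown function, with 26873 and 26518 from a probe set whose ID carries an extra letter. CCW12, a cell wall mannoprotein, followed with 26597 and 26333, and its arrays did not overlap those of the next gene. RPS26A, a protein of the small ribosomal subunit, had 24523 and 21807, and TDH3, the main glyceraldehyde-3-phosphate dehydrogenase, had 21993 and 23723. A second YDR524C-A probe set, whose ID does not mark shared probes in the same way, had a lower signal, with 21090 and 21411. Its mean of 21251 lay below those of CCW12, RPS26A and TDH3. A second RPS26A probe set had a mean of 12213. Of the 20 brightest genes, 10 encoded cytosolic ribosomal proteins, 5 glycolytic enzymes and 5 something else.

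The ribosomal genes among the 20 were RPS26A, RPP1B, RPL21B, RPS21B, RPS21A, RPL17A, RPL21A, RPS0B, RPP1A and RPP0, the last also known as the core of the ribosomal stalk. Besides TDH3, the glycolytic genes were CDC19, pyruvate kinase, with 17271 and 17566, PGK1, phosphoglycerate kinase, with 17136 and 17204, ENO2, enolase, with 16156 and 15975, and GPM1, phosphoglycerate mutase, with 16578 and 15132. ADH1, the alcohol dehydrogenase that makes ethanol, had 17384 and 18294. LYS20, a homocitrate synthase that starts lysine synthesis, had 16428 and 17047 and was the only amino acid enzyme among the 20. ARF1, a small GTPase of vesicle transport, had 17294 and 14239. By the highest probe set of each gene, YDR524C-A and CCW12 had a higher signal on both arrays than any of the other 18. For YDR524C-A this holds only for the probe set with the extra letter. Of the 19 neighbouring pairs 18 overlapped, as did 5470 of the 5472 neighbouring pairs over all genes. Of the 20 genes, 7 came from probe sets whose IDs carry an extra letter, which marks shared or less strictly chosen probes. Without such probe sets, 14 of the 20 remained among the brightest 20. With the mean over the probe sets of a gene, 18 remained.

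Summed over all ranked genes, signal was concentrated in few of them. The brightest 1%, which are 55 genes, held 10.2% of the summed signal in each replicate, and the brightest 10% held 47.7% of the sum of the means. The dimmer 2736 genes held 10.1% in replicate 1 and 10.8% in replicate 2. The 94 ranked cytosolic ribosomal protein genes held 11.7%, the 69 genes of amino acid synthesis outside the sulfur branch 4.69%, the 46 cell wall genes 2.86% and the 18 glycolytic genes 2.09%. These are shares of signal and cannot be read as shares of mRNA molecules, because probe sets respond differently.

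Of 137 cytosolic ribosomal protein genes, 94 were ranked, and the other 43 lay in probe sets that name several genes. Of the 94, 92 were bright and their median percentile was 98.2, where all genes have 50 by construction. The 2 exceptions were RPL22B, with 3066 and 4075, and RPL15B, with 1258 and 1526 at percentile 70.4, the lowest of the 94. Both of these have a second copy that was bright.

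For 36 ribosomal proteins both copies were ranked, and the copies differed by a median of 0.46 log2 units in signal. The A copy had the higher signal in 24 pairs and the B copy in 12. In 31 pairs the arrays of the copies did not overlap, yet no pair lay further apart than the 2.54 log2 units within which 90% of genes with several probe sets keep their own. RPL15A had 8852 and 7346, against the values of RPL15B above. RPS26A stood beside RPS26B with 3622 and 4374, and RPL22A had 13909.5 and 13146. RPL7A had 11343 and 11152 and RPL7B 5032 and 4829. Among the pairs in which the B copy was higher, RPS0A had 6748 and 7448 and RPS0B 17069 and 15608. Where a copy had several probe sets, the highest stood for it. The other RPS0B set had a mean of 7881, near the 7098 and 7037 of the 2 RPS0A sets. The other RPS26A set had a mean of 12213, and those of RPL7A and RPL7B had means of 5557 and 2934. The closest pair was RPP2A, with 16287 and 14145, and RPP2B, with 15059 and 15489.8, proteins of the stalk. The 2 copies of RPS30 had 13227 and 10620.4 for RPS30A, and 11873 and 11183 for RPS30B, and those of RPS23 had 8755 and 8369 for RPS23A, and 9426 and 8409 for RPS23B. In these 3 pairs the arrays overlapped, so their order was not resolved. Copies with nearly identical sequence can share RNA between probe sets, and how far they did so here was not tested. The 14 pairs without an extra letter in either ID, which are part of the 36, had a median difference of 0.44.

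**Figure D3:**
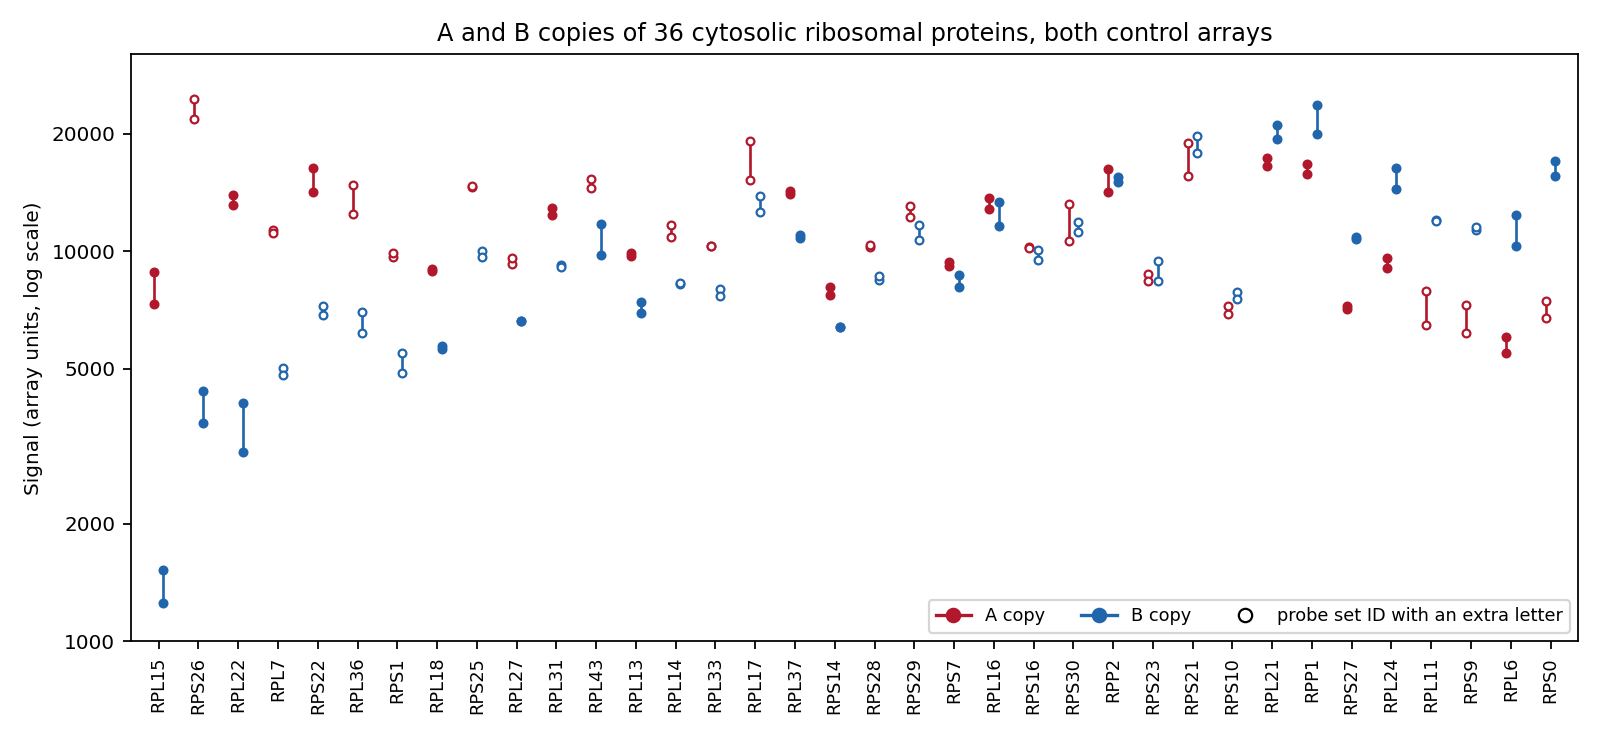
Signals of the A copy (red, left of each pair) and B copy (blue) of 36 ribosomal proteins on both control arrays, in array units on a log scale, ordered by the difference of the means, with open points for probe sets whose ID carries an extra letter. The B copies of RPL15, RPS26 and RPL22 lie lowest of all copies, and from RPL16 to RPS21 several pairs overlap.

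Other genes of cytosolic translation were bright as well. Of 34 ranked translation factors 16 were bright, with a median percentile of 89.1. YEF3, an elongation factor particular to fungi, had 13669 and 13868, HYP2, the eIF5A used with oxygen, had 12944 and 10122, and EFB1, of elongation factor complex EF-1, had 10402 and 9706. The lowest were TIF4632, an eIF4G, at 234 and 264 and GCD2, of eIF2B, at 359 and 320.3. All 18 listed aminoacyl-tRNA synthetase genes of the cytosol lay at or above percentile 84.2, and 12 of them were bright. The list does not hold every such enzyme. Its members ran from FRS2 with 2926 and 2186 to FRS1 with 8890.5 and 7904, the 2 subunits of the phenylalanine enzyme.

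Genes that assemble ribosomes lay lower in the order than those that encode their proteins. Of 73 ranked ribosome biogenesis genes 12 were bright and 29 moderate, with a median percentile of 78.0. DBP2, an RNA helicase, had 8169.8 and 7685, and NOP58, of the methylation guide complexes, had 7829 and 7199.6. At the low end UTP4, of the small subunit processome, had 231 and 227 and MAK21 had 261 and 292. RNA polymerase subunits had a median percentile of 80.7, with 8 of 31 bright. RPA135 and RPA190, the largest subunits of polymerase I, had 6017 and 6049.6 for RPA135, and 4362 and 4305 for RPA190. Those of polymerase II had 5190.1 and 4823 for RPB2, and 4542 and 5160.1 for RPO21. RPC53, of polymerase III, was the lowest of the 31 with 392 and 456.

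Mitochondrial ribosomal proteins were moderate. None of 69 was bright, 55 were moderate and all 69 were Present on both arrays, with a median percentile of 52.0, close to the 50 of all genes. They ran from MRPL37 with 3011 and 2568 to MRPS5 with 65.1 and 57.5. The cytosolic and mitochondrial sets did not share a percentile except between 70.4 and 85.3, where RPL15B overlapped with the highest of the mitochondrial genes.

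Most glycolytic genes were bright. Of 18 ranked glycolytic genes 13 were bright. The 5 others were GLK1 with 3953 and 1819, HXK1 with 1731 and 809, GPM3 with 838 and 965, PYK2 with 799 and 572 and GPM2 with 115 and 141. TDH1, a dehydrogenase known from stationary cells, had 6529 and 2465, over 2-fold higher in replicate 1, while TDH3 differed little between arrays. The enolases ENO2 and ENO1 had overlapping signals, ENO1 with 16741 and 13252. The probe set IDs of TDH3, ENO2 and ENO1 carry an extra letter. Among pyruvate decarboxylases PDC1 had 11945 and 12237 and PDC5 905 and 859. Among alcohol dehydrogenases ADH5 and the mitochondrial ADH3 had 7539 and 9194 for ADH5, and 6413 and 6589 for ADH3, and ADH2, which consumes ethanol and is known to be repressed by glucose, had 810.5 and 773.

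**Figure D4:**
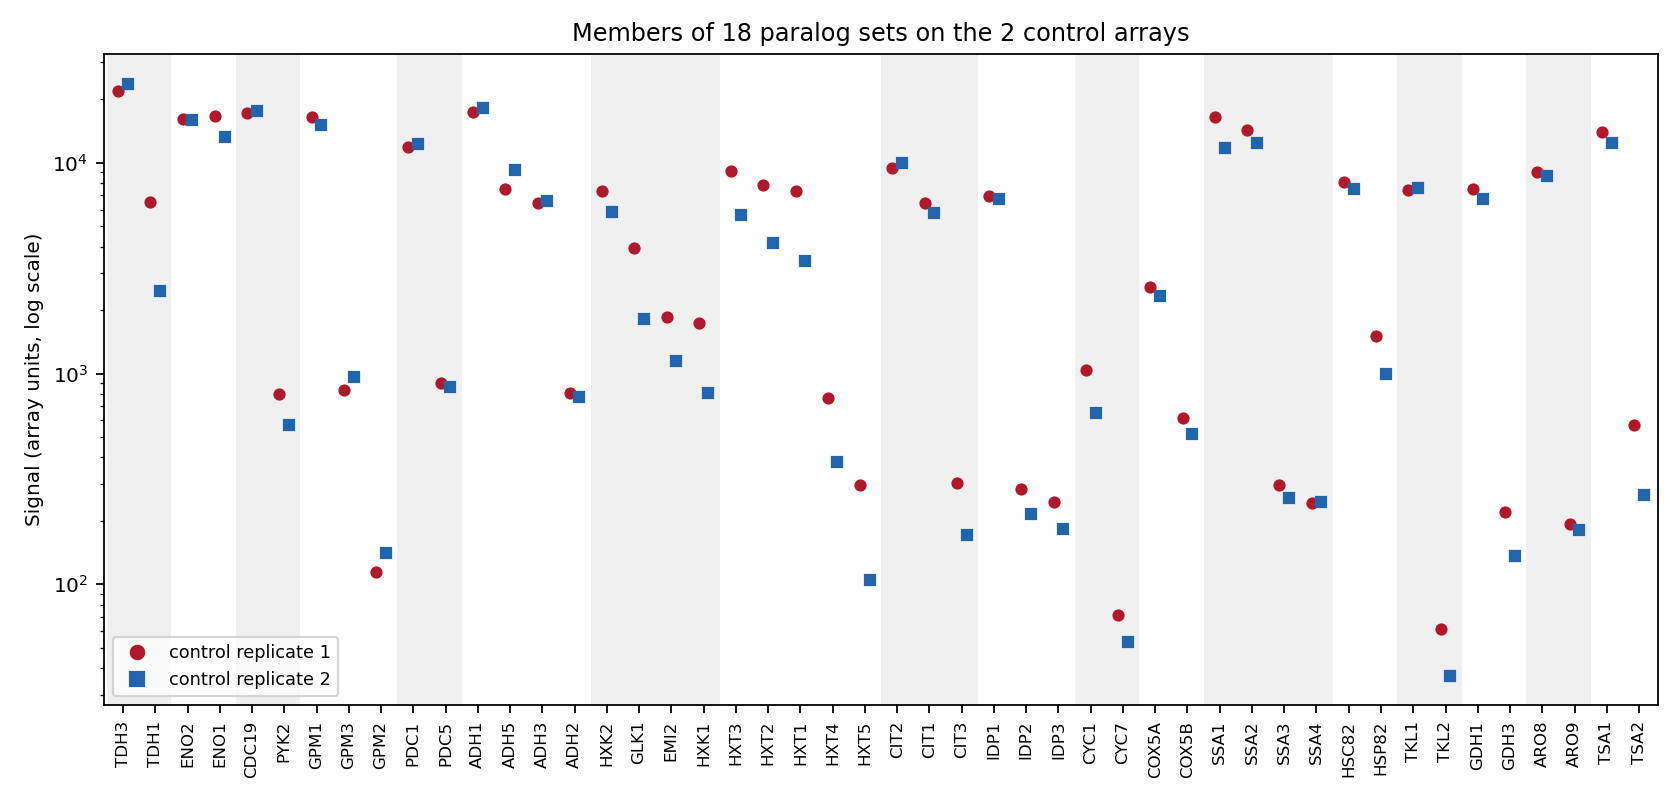
Signals of the ranked members of 18 paralog sets, red circles for control replicate 1 and blue squares for control replicate 2, in array units on a log scale, with shading that separates sets. In CDC19, PDC1, IDP1, TKL1, GDH1, ARO8 and TSA1 sets 1 member stands far above the other, whereas ENO2 with ENO1 and SSA1 with SSA2 overlap. The probe set IDs of ENO2, ENO1 and SSA1 carry an extra letter.

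Isozymes of acetate and acetyl-CoA metabolism differed in level. ACS2, the acetyl-CoA synthetase used on glucose, had 5848 and 4690.3, and ACS1 had 951 and 659.7. The mitochondrial aldehyde dehydrogenase ALD5 had 3200.1 and 4486, and the cytosolic ALD6 had 2957 and 846, over 2-fold higher in replicate 1. ALD3 and ALD2, known to be induced by stress, had 519 and 136 for ALD3, and 236 and 149 for ALD2. The list's median percentile was 83.1 in replicate 1 and 67.6 in replicate 2.

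Only 8 of 20 hexose transporter and sensor genes were ranked, because 9 lay in probe sets of several genes and 3 are not analysed here. HXT3, HXT2 and HXT1 were bright, with 9132 and 5624 for HXT3, 7889 and 4152 for HXT2, and 7327 and 3429.6 for HXT1, and their arrays overlapped, with replicate 1 higher for each. HXT1 and HXT3 are known as low-affinity carriers and HXT2 as one with higher affinity. HXT4 had 763 and 379 and HXT5, known from slow growth, had 297 and 105 with a Present call on 1 array. The glucose sensors SNF3 and RGT2 had 314 and 186 for SNF3, and 215 and 218 for RGT2, and GAL2, the galactose permease, was not Present, with 205 and 157. The median percentile of these 8 was 31.6, 39.1 in replicate 1 and 24.1 in replicate 2, and it was 66.3 among the genes Present on both arrays, so this median describes few genes with 2 very different levels.

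Genes for other carbon sources were among the dimmest. Of 14 ranked genes for galactose, maltose and sucrose use, 9 were dim, 3 were not Present and 0 were bright, with a median percentile of 8.61. The highest were GAL80, the repressor of the galactose genes, with 1640.1 and 1624, and SUC2, invertase, with 663 and 688. GAL4, their activator, had 187 and 177 and GAL7 154 and 154, each Present on 1 array. MAL31, a maltose permease, MPH2, a permease relative, and IMA5, an isomaltase, were not Present, with 165 and 119.9 for MAL31, 95.0 and 117 for MPH2, and 39.9 and 44.1 for IMA5. The probe set IDs of SUC2, MAL31 and MPH2 carry an extra letter.

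Gluconeogenesis and the glyoxylate cycle had a median percentile of 21.7 over 15 ranked genes. PCK1 and FBP1, the key enzymes of gluconeogenesis, had 149 and 99.1 for PCK1, and 119 and 106 for FBP1, and CAT8, the activator of this programme, was not Present, with 56.6 and 37.9. ADR1, which activates genes for ethanol use, had 592 and 267. YAT2, a carnitine acetyltransferase, was the highest of the 15 and was over 2-fold higher in replicate 2, with 1469.5 and 3499. MDH2, the cytosolic malate dehydrogenase, had 1721 and 978.

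Genes of the tricarboxylic acid cycle were higher, with 12 of 24 bright and all 24 Present on both arrays. CIT2, the peroxisomal citrate synthase, had 9465 and 10019, its mitochondrial counterpart CIT1 6414 and 5794, and CIT3 303 and 171. The mitochondrial isocitrate dehydrogenase IDP1 had 6941 and 6757, whereas the cytosolic IDP2 had 284 and 214 and the peroxisomal IDP3 246 and 183. PYC2 and PYC1, the pyruvate carboxylases that refill the cycle, had 5287 and 5649 for PYC2, and 4652 and 5409 for PYC1, which overlapped. Respiratory chain and ATP synthase genes had a median percentile of 78.3, with 6 of 36 bright. ATP1 and ATP2, the catalytic core of ATP synthase, had 7690.0 and 6748 for ATP1, and 6974 and 6250.3 for ATP2. The 2 members of this list that were not Present were the alternative NADH dehydrogenase NDE2, with 222 and 207, and CYC7, the cytochrome c known from low oxygen, with 71.5 and 53.4. Their counterparts NDE1 and CYC1 had 3200.0 and 1381 for NDE1, and 1041 and 648 for CYC1. COX5A and COX5B, exchangeable subunits of cytochrome oxidase, had 2565 and 2339.9 for COX5A, and 613 and 516 for COX5B.

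Genes of storage carbohydrates moved with the array. The median percentile of 20 trehalose and glycogen genes was 46.1 in replicate 1 and 29.4 in replicate 2, and 3 of the 20 were over 2-fold higher in replicate 1, beside 2.54% of all genes. UGP1, which makes UDP-glucose for glycogen, trehalose and the cell wall, was the only bright gene of the list, with 4442 and 3855. GSY2, the main glycogen synthase, had 590.1 and 317 and GSY1 74.4 and 47.9. GAC1 and PIG1, subunits that target a phosphatase to glycogen, were not Present, with 103 and 116 for GAC1, and 116 and 98.9 for PIG1. In the pentose phosphate pathway TKL1, GND1 and TAL1 were bright, with 7423 and 7605 for TKL1, 6702 and 6095 for GND1, and 4831 and 4019 for TAL1, while TKL2, the second transketolase, had 61.4 and 36.9 with 1 Present call.

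Most genes of amino acid synthesis outside the sulfur branch were bright. Of these 69 genes, 49 were bright and 67 were Present on both arrays, with a median percentile of 94.1. After LYS20, the highest were ARG1 of arginine synthesis with 10473 and 11949 and CPA1, of the carbamoyl phosphate synthetase for arginine, with 10296 and 11324. GCN4, known as an activator of many genes of amino acid synthesis, had 10733 and 10617, and HOM2, of threonine and methionine synthesis, 10467 and 10706. GCN4 is known to be controlled mainly at translation, which mRNA signals do not show. The lowest were isozymes or single steps, GDH3 with 219.7 and 136 and ARO9 with 192 and 180.4, each Present on 1 array, and PHA2 with 456 and 568.

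Isozyme pairs of this group were both bright in some cases. ARO4 and ARO3, the enzymes that open aromatic amino acid synthesis, had 8910.5 and 8937 for ARO4, and 8732 and 8839.5 for ARO3. ASN1 and ASN2, asparagine synthetases, had 6032 and 7462 for ASN1, and 5444 and 4813 for ASN2. In other pairs 1 copy stood lower. GDH1, the glutamate dehydrogenase of growing cells, had 7540.1 and 6708 beside the low GDH3, and the aminotransferase ARO8 had 9087 and 8681 beside ARO9. LYS21, the second homocitrate synthase, had 5025 and 5735. LEU4, which starts leucine synthesis, had 10699.8 and 8826 and LEU9 1928 and 2473. The mitochondrial aminotransferase BAT1 had 6157 and 6651 and the cytosolic BAT2 2412 and 2770.1. SER3, of serine synthesis, had 2332 and 3594 and SER33 1082 and 939.7. In none of these pairs with a lower copy did the arrays of the copies overlap. GDH1 and GDH3, and ARO8 and ARO9, lay further apart than 2.54 log2 units, whereas LYS20 and LYS21, LEU4 and LEU9, BAT1 and BAT2, and SER3 and SER33 lay within that spread of probe sets.

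The sulfur branch was different in level, with a median percentile of 51.3 over 28 genes, near that of all genes. It was 45.0 in replicate 1 and 52.4 in replicate 2. Its bright members included SAH1, which recycles adenosylhomocysteine, with 8984 and 9039, MET6, methionine synthase, with 4857 and 5043, and CYS3, of cysteine synthesis, with 6868 and 3274, over 2-fold higher in replicate 1. The sulfate permeases SUL1 and SUL2 had 161 and 122 for SUL1, and 413 and 317 for SUL2, and MHT1, which uses S-methylmethionine, had 57.0 and 28.4. Of 35 ranked purine and pyrimidine genes 23 were bright. IMD3 and IMD2, IMP dehydrogenases whose probe set IDs carry an extra letter, had 9959 and 9907 for IMD3, and 8298 and 8713 for IMD2, and URA2, of pyrimidine synthesis, had 7707 and 7610.2. URA5 and URA10, alternative orotate phosphoribosyltransferases, had 7055 and 5932 for URA5, and 83.7 and 61.7 for URA10.

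Amino acid permeases were the brightest of the nitrogen-regulated genes. DIP5, AGP1, BAP3, BAP2 and LYP1 had 7957 and 7274 for DIP5, 7709 and 6386 for AGP1, 6229 and 6106 for BAP3, 5534 and 6774 for BAP2, and 5576 and 5594 for LYP1. The allantoin genes DAL3 and DAL2 were not Present, with 154 and 107 for DAL3, and 108 and 93.8 for DAL2, and PUT1, which starts proline breakdown, had 283 and 132 with 1 Present call. Over the 31 ranked genes of this list the median percentile was 61.2 in replicate 1 and 53.0 in replicate 2. The ammonium permeases MEP3, MEP1 and MEP2 had 2721 and 1759 for MEP3, 2241 and 1999 for MEP1, and 2153 and 746 for MEP2. The 29 ranked vitamin genes had a median percentile of 47.7 in replicate 1 and 55.2 in replicate 2. Of these, SNZ1 of vitamin B6 synthesis was the highest, with 8746 and 9559, and THI2, an activator of thiamine genes, the lowest, with 62.6 and 79.5.

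At the cell surface, pumps and wall proteins were bright. Of 25 ranked pump genes 14 were bright, with a median percentile of 92.3. PMA1, the proton pump of the plasma membrane, had 11372 and 11331 and its relative PMA2 2178 and 2252. VMA3, of the vacuolar proton pump, had 12349 and 12484, and VPH1 and STV1, alternative subunits of the same pump in the vacuole and the Golgi, had 9547 and 9083 for VPH1, and 2159 and 2117 for STV1. The potassium transporters TRK1 and TRK2 were lower, with 803 and 808 for TRK1, and 327 and 352 for TRK2.

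Of 46 ranked cell wall genes 23 were bright. CWP2, a wall mannoprotein, had 16961 and 14276 and CWP1 3227 and 1816. GAS1, a glucan remodelling enzyme, had 14039 and 12198, and FKS1, the main glucan synthase, had 9693 and 8608 beside GSC2 with 3900.2 and 2679.9. Among PIR proteins CIS3, HSP150 and PIR1 were bright, with 12821 and 9744 for CIS3, 9184 and 7059 for HSP150, and 6933 and 5588 for PIR1, and PIR3 had 762 and 369. TIR3, TIR1 and TIR2, mannoproteins known from cold and low oxygen, were bright, with 6760.4 and 6279 for TIR3, 5434 and 5521 for TIR1, and 5423 and 5262 for TIR2, whereas TIR4 had 609.6 and 617. The 19 ranked genes of a hypoxic list, which holds these 4, had a median percentile of 59.5. The adhesins FLO11 and FLO10 had 532 and 587 for FLO11, and 96.9 and 93.1 for FLO10.

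Lipid synthesis was also high in the order. Ergosterol genes had a median percentile of 86.0, with ERG10 at 9547 and 7441, ERG25 at 8029 and 6954 and UPC2, the sterol-sensing activator, at 140.4 and 139.8. Fatty acid synthesis had a median of 89.5, with ACC1 at 6577 and 6592 and FAS2 at 6902 and 6097. HFA1, the mitochondrial counterpart of ACC1, had 246 and 332. Fatty acid breakdown lay at the other end, with a median of 24.9 over 22 genes. POX1, acyl-CoA oxidase, was not Present, with 42.3 and 42.2, CTA1, the peroxisomal catalase, had 71.4 and 79.8, and DCI1, an auxiliary enzyme, had 13.4 and 19.4. PEX11, which divides peroxisomes, was the highest of the 22 with 4313 and 2380.4.

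Nutrient transporters covered a wide range. In the phosphate group PHO90, a low-affinity transporter, had 5079 and 4864, PHO3, an acid phosphatase, had 5994 and 4131, and PHO89 had 1549.6 and 478. Of its 20 ranked genes 5 were over 2-fold higher in replicate 1 and 1 in replicate 2, beside 2.54% and 0.64% of all genes. PHO84 and SPL2 were among the 5, SPL2 with 307 and 71.5, and PHO4, the activator of the group, was the one higher in replicate 2, with 130.0 and 389. The median percentile of the phosphate genes was 70.3 in replicate 1 and 59.0 in replicate 2. By the mean of both arrays it was 80.6 for 9 zinc and 58.1 for 27 iron and copper genes. The zinc transporters ZRT1 and ZRT2 had 5306 and 5039.8 for ZRT1, and 1776 and 2445 for ZRT2. FET3, of high-affinity iron uptake, had 6293 and 5417, and CTR1, of copper uptake, had 170.2 and 179.

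Chaperone families held members far apart in signal. Of 39 ranked chaperones 12 were bright, with a median percentile of 86.4, and of 26 antioxidant genes 7 were bright, with a median of 76.6. SSA1 and SSA2, cytosolic Hsp70 proteins, had 16563 and 11741 for SSA1, and 14341 and 12461 for SSA2, which overlapped, while SSA3 and SSA4, known to be induced by heat, had 297 and 256 for SSA3, and 242 and 246 for SSA4. HSC82, the constitutive Hsp90, had 8081 and 7532 and HSP82 1502 and 993. The probe set IDs of SSA1 and HSP82 carry an extra letter. SSE1 and SSE2, of the Hsp110 class, had 6096 and 5991 for SSE1, and 386 and 219 for SSE2. Among antioxidant genes, TSA1, the main peroxiredoxin, had 14049 and 12402 and TSA2 571 and 265. SOD1, the cytosolic superoxide dismutase, had 11238 and 9118 and the mitochondrial SOD2 1493 and 1066, and the catalase CTT1 had 138 and 92.9. The thioredoxins TRX2 and TRX1 were both bright, with 7997 and 6298 for TRX2, and 6919 and 5999.5 for TRX1.

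The 25 general stress genes depended on the array. Their median percentile was 47.7 in replicate 1 and 20.5 in replicate 2. HOR7, a gene of unknown function known from osmotic stress, was the only bright gene of the list, with 18326 and 10612. DDR2 had 2937 and 1495 and PNC1, a nicotinamidase, 2762 and 1217. XBP1, a repressor, had 145 and 70.1 and TMA10 187 and 27.9, with 1 Present call each. OM45, a mitochondrial outer membrane protein, was not Present, with 58.4 and 51.1. The 33 ranked proteasome genes lay between percentile 44.2 and 91.2. Its highest member was PUP3 with 4831 and 3850.3 and its lowest RPT2 with 715 and 475.

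Genes for DNA-binding activators lay mostly below the middle of the order. Of 62 ranked activators of pathways, GCN4 was the only bright one, and the median percentile was 40.1. After GCN4 came SKN7, of the oxidative stress response, with 2005 and 2128, and MCM1 with 1987 and 1903, and the lowest were FHL1, an activator of ribosomal protein genes, with 61.0 and 104, and CAT8. MSN2 and MSN4, the general stress activators, had 1538 and 986 for MSN2, and 403 and 336 for MSN4. Cyclins and cell cycle regulators had a median of 43.7. CTS1 and EGT2, a chitinase and a glucanase of cell separation, were the only bright ones, with 9908 and 7423 for CTS1, and 5980.1 and 4664 for EGT2. The G1 cyclins CLN1 and CLN2 had 1179.7 and 1757 for CLN1, and 874 and 1044 for CLN2. The S-phase cyclin CLB5 had 265 and 273 and CLB6 38.8 and 53.7.

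Histone and cytoskeleton genes had median percentiles of 84.5 and 80.6. HHT2 and HHT1, both for histone H3, had 14179 and 14671 for HHT2, and 10974 and 10521 for HHT1. The probe set ID of HHT1 carries an extra letter. HTB1, for histone H2B, had 7100.1 and 7394 and HTB2 3969 and 4343. CSE4, the histone of centromeres, had 179 and 185. ACT1, actin, had 13164 and 13560.4 and COF1, cofilin, 8413 and 7751, while the septin CDC3 and the myosin MYO1 of the division ring had 188 and 203 for CDC3, and 116 and 138 for MYO1. The 22 ranked drug efflux and resistance genes, with a median percentile of 72.9, ranged from ATR1, with 2686 and 5303 and higher in replicate 2, and PDR5, with 3634 and 2829, to PDR15, with 281 and 239.9, and AZR1, with 89.6 and 106.

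Genes of meiosis and sporulation had one of the lowest medians of the 43 lists, close to that of galactose, maltose and sucrose use at 8.61. Of 59 listed genes only 30 were in the table, 16 of these were dim and 2, SPR28 and REC107, were not Present, with 59.2 and 62.8 for SPR28, and 37.7 and 51.7 for REC107. IME1, the master inducer, had 745 and 550.4 at percentile 47.1, while IME2, the kinase it activates, had 51.1 and 22.8. SPR6 was the highest of the 30 with 859 and 967. The 29 genes outside the table are not analysed here, so the list's median percentile of 8.53 covers only the members in the table. Pheromone response genes were mostly moderate, 19 of 25, from FUS2 with 212 and 243 to STE4, the G protein beta subunit, with 2080.0 and 1718.

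Over 96 paralog sets, 207 of 227 members were ranked, 13 lay in probe sets of several genes and 7 (PDC6, HXT8, HXT10, HEF3, GND2, RNR3 and FKS3) are not analysed here. Of 117 pairs of neighbouring members in the order of a set, 91 had arrays that did not overlap and 31 lay further apart than 2.54 log2 units. The widest were TKL1 and TKL2, URA5 and URA10, SSA2 and SSA3, ARO8 and ARO9, and GDH1 and GDH3. Among pairs with overlapping arrays, RAS1 had 1637 and 1443 and RAS2 1269 and 1677, and HMG2 had 3382 and 2886 and HMG1 2951 and 2037.

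**Figure D5:**
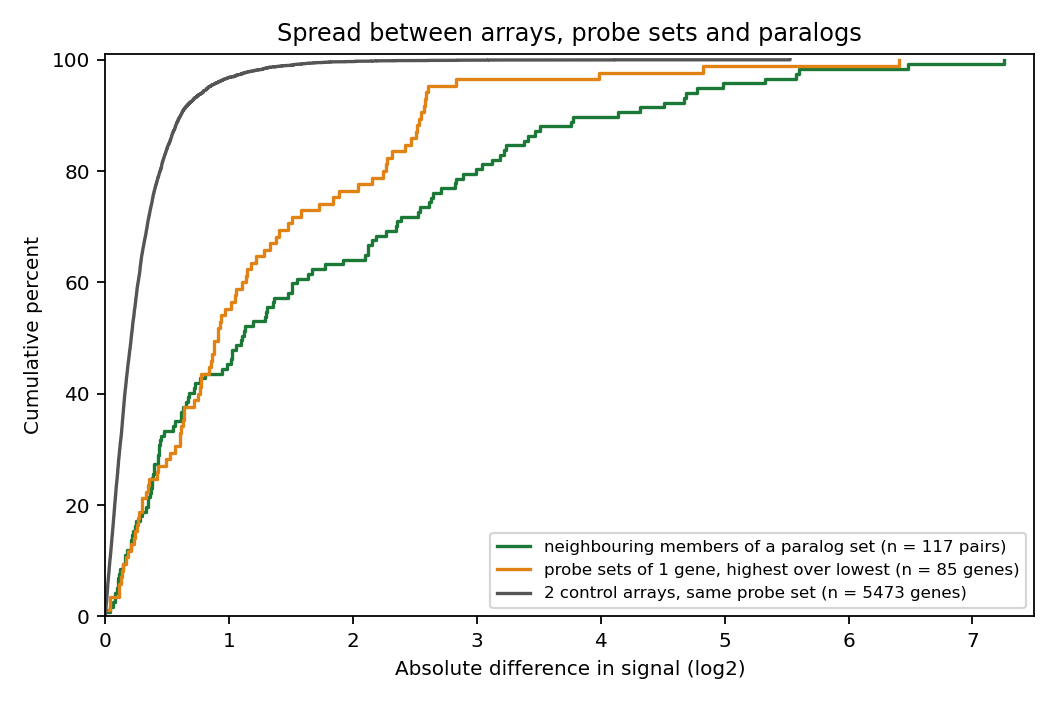
Cumulative percent of absolute log2 differences in signal between the 2 control arrays for 5473 genes (grey), between the highest and lowest probe set of the same gene for 85 genes (orange), and between neighbouring members of paralog sets for 117 pairs (green). The median is 0.21 between arrays and 0.91 between probe sets of 1 gene, and the green curve runs along the orange one up to about 1 log2 unit and beyond that to the right of it.

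Of the 80 genes not Present on either control array, 51 were dim. Besides members of the lists above, the highest with a gene name were MBR1, with 394 and 329.6, MGT1, a DNA repair methyltransferase, with 295 and 317, GEP5 with 313 and 256, IRC4 with 239.8 and 309, AIM23 with 278 and 246, TOS2 with 258 and 232, CSI1 with 229 and 221 and RRT6 with 229 and 217. The lowest were PEX32, a peroxisomal membrane protein, with 21.5 and 25.6, JIP3 with 23.4 and 31.7 and ATG39, a receptor for autophagy of the nuclear envelope, with 43.5 and 28.4. AQY1, a water channel of spores, had 208 and 191.

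Gene models of doubtful coding potential lay low in the order. The deposited gene text calls 263 ranked open reading frames dubious, and their median percentile was 16.2, against 51.9 for the other 5210 genes. Of the 263, 93 were dim and 156 were Present on both arrays. The text names an overlapped gene for 143 of them, and the 25 on the same strand as that gene had a median percentile of 42.4, whereas the 118 on the opposite strand had 14.3. The highest of the 263 was YMR173W-A, with 14348 and 11034, which overlaps the stress gene DDR48 on the same strand, and DDR48 itself was not ranked because its probe set names several genes. The 965 genes described as of unknown function, with a median percentile of 42.3, included 34 bright ones. After YDR524C-A and HOR7 the highest was NCW1, with 14907 and 11781, from a probe set with an extra letter.

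Gene position and length were set beside signal. By gene order in the reference table of assembly R64, 42 of the 160 genes in places 1 to 5 from a chromosome end were ranked, with a median percentile of 28.2. In places 6 to 10 these values were 115 of 160 and 42.6, and in places 11 to 20 they were 274 of 320 and 52.2, near the 52.1 of genes from place 51 inward. The gene families known from chromosome ends had 19 of 61 members ranked, since 34 lay in probe sets of several genes, and a median percentile of 25.9. COS6, a membrane protein of such a family, was the highest with 3939 and 3244. Gene length was read as the span of the gene in that table, which includes introns. Bright genes had a median span of 1009.5 nucleotides, moderate ones 1323 and dim ones 1338. Without the ribosomal protein genes the median of the remaining bright genes was 1158. Across 5202 genes with a span the Spearman coefficient between signal and span was -0.095, a weak relation among genes that share both arrays.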

How the data were processed

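The samples were grouped by their titles, and only the 2 control arrays of BY4741 were used. The deposited values are signal intensities, linear and 1 for each probe set on each array. MAS5 is named in the submitters' processing notes, without a version or what it was used for. The sources used here do not give the scaling between arrays, the call settings or the genome build. The authors' table gives Present calls as the percent of a group's arrays, under a header that names the baseline, so a value of 50 does not say which array was called. The authors' deposited control means matched the means computed here within a median of 0.079%. The 1953 probe sets that named several genes, or no single open reading frame, were left out.

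From these values means, ranks, percentiles and counts were computed with Python 3.11.15, pandas 2.3.3 and numpy 2.4.6, and the ranking code was tested on simulated data. Where a gene had more than 1 probe set, the one with the highest mean stood for it. Symbols, gene order and gene span came from the RefSeq table of assembly R64, which matched 5202 of the 5473 genes, and other genes keep the name in the files. No test was run, since there is no contrast here and 2 arrays limit the precision to the spread between them, which may be technical. The members, the 43 lists and the 96 paralog sets were chosen from general knowledge of yeast with earlier results of these data known.

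Named genes were drawn from the 20 brightest, up to 5 highest and 5 lowest members of each list with its members not Present, the paralog members, the ribosomal pairs with the 5 largest and 3 smallest differences, the 10 named highest and 10 lowest genes not Present, the strain check genes, the 5 genes whose arrays differed most, and genes at a band's limit. All paralog members had been planned, but only some of them are named here. HSP12, YJR115W, YMR173W-A, NCW1 and the genes of the closing section were named after their values were seen. Alternatives were 1 array alone, quantile normalization, geometric means, genes Present on both arrays, means over probe sets and probe sets without shared probes.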

Additional observations from a re-analysis of the deposited data

How the results depend on the processing

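No paired analysis was possible because the results come from no test and from 1 group. With 1 of the 2 arrays alone, the 20 brightest genes shared 16 to 17 with the order by both arrays, 524 to 525 of the 548 bright genes were shared, 22 to 23 lists had a median percentile of at least 75 (23 with both arrays), and 79 to 83 of the 87 paralog sets with 2 ranked members or more kept their order. The brightest 10% then held 47.8% to 47.9% of the summed signal, and bright genes had a median gene span of 999 to 1041 nucleotides. That share, 47.7% by both arrays with an SD of 0.028 between them, was 47.8% with geometric means, 46.4% over genes Present on both arrays, 47.3% with means over probe sets and 46.2% without probe sets whose ID carries an extra letter. The median gene span of bright genes was 957 nucleotides in the brightest 5% and 1155 when ribosomal protein genes were left out before ranking.

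List medians moved by at most 1.10 percentile points under quantile normalization, 4.44 with geometric means and 0.20 with means over probe sets. Over genes Present on both arrays they moved by up to 34.7 points, 5 of the 43 by over 5: hexose transporters had 66.3 with that choice, general stress genes 45.1, nitrogen genes 69.5, the pentose phosphate pathway 85.5 and alpha-cell genes 7.81. Without probe sets whose ID carries an extra letter they moved by up to 5.17 points, which 1 list, histones at 79.4, did by over 5. Galactose, maltose and sucrose genes had a lower median than meiosis and sporulation genes without replicate 2 (9.79 and 9.91), without those probe sets (8.43 and 8.50) and over genes Present on both arrays (6.12 and 9.29), against 8.61 and 8.53 by both arrays. Without replicate 1, 7 of the 43 list medians moved by over 5 points, and without replicate 2, 4 did. General stress genes had 20.5 without replicate 1 and 47.7 without replicate 2, against 34.2 with both. The 2 paralog sets of ENO2 and GRX2 had another highest member without replicate 2, as did the 6 sets of SSA1, TSL1, NTH1, RAS1, SNF3 and MEP3 without replicate 1 and the set of SSF2 with means over probe sets. The choices of quantile normalization and genes Present on both arrays were added for the comparison of the arrays after seeing the data, as was the count of the 20 brightest genes. The 2 arrays, genes outside the table and the unequal response of probe sets limit what an order of signals can show.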

Other observations

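Genes with an intron showed how far probe sets of the same transcript can differ, and they were chosen after their values were seen. The files label probe sets by exon for 50 genes with a probe set in exon 1 and another in exon 2. The exon 1 probe set had the lower mean signal in 41 of the 50, with a median difference of -0.81 log2 units (exon 1 over exon 2). For RPS10B, a protein of the small ribosomal subunit, the mean signal was 90.9 from exon 1 and 7703 from exon 2. HNT2, a hydrolase, had 16.0 from exon 1 and 454 from exon 2, and LSM2, of the RNA-binding Lsm ring, had 76.8 and 1214. The exon 1 probe set IDs of RPS10B, HNT2 and LSM2 carry an extra letter, as does the exon 2 ID of RPS10B. The exon 1 set of HNT2 was Present on 1 array. The difference ran the other way for CNB1, the regulatory subunit of calcineurin, with 5737 from exon 1 and 979.6 from exon 2. How long each exon is, and how its probes were chosen, was not tested.

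Some dubious open reading frames had a higher signal than the gene they overlap. Of 23 such pairs on the same strand with both genes ranked, the dubious frame was higher in 8. YBR206W, which overlaps the mannosyltransferase gene KTR3, had a mean of 2752 against 1372 for KTR3, and YLR294C, which overlaps ATP14 of ATP synthase, had 2508 against 1945 for ATP14. These are probe sets of different positions, and which transcript each reads was not tested.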
